A study of Drosophila melanogaster with 18 samples.

Results

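Cytoplasmic ribosomal proteins build the large (RpL) and small (RpS) subunits of the ribosomes that translate messenger RNA in the cytosol. The genes were taken as all protein-coding genes of the Drosophila melanogaster release 6 annotation whose symbol begins with RpL or RpS and then a digit or P, so that mitochondrial ribosomal proteins and the S6 kinase stayed out. This gave 92 genes, 54 RpL and 38 RpS, of 13986 protein-coding and 18357 annotated genes. The rule used names and no measured value.

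Ribosomal protein genes are among the most strongly transcribed genes of a growing cell, since each ribosome takes 1 copy of nearly every protein. In Drosophila many of their promoters start transcription at a pyrimidine-rich initiator, the TCT motif, in place of the usual initiator. Loss of 1 copy of many of them gives the Minute phenotype of slow development and short bristles. Several also carry small nucleolar RNAs (snoRNAs), which guide the modification of ribosomal RNA, in their introns.

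RNA polymerase II occupancy was read by targeted DamID, in which a GAL4 driver expresses the Dam methylase fused to polymerase II, and methylated GATC sites are amplified, sequenced and counted. Embryos of stages 10 to 13 from 4 h collections gave 18 libraries, 3 biological replicates in each of 6 groups. The fusion was driven by bap-GAL4 (bap, active in the visceral mesoderm) or twi2xPE-GAL4 (twi, active in the mesoderm at large). All groups carried a driver with UAS-Dam-PolII, alone in the Dam-PolII groups (the controls), with UAS-Alk.EC.MYC in Alk.DN (a dominant-negative form, the extracellular part of Alk, a receptor tyrosine kinase) and with UAS-jeb in Jeb (the ligand that activates Alk). Each library came from a pool of whole embryos, so values average over all cells that expressed the driver. Fewer such cells and less polymerase per cell cannot be told apart.

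Library totals ran from 1624349 to 14095376 counts. Several libraries stood apart from their labels. The first exon of jeb held 367 to 470 CPM (counts scaled to a library total of 1000000) in the bap libraries labelled Dam-PolII, 249 to 621 in replicates 2 and 3 of both Jeb groups, and 2.4 to 13.2 in all other libraries, among them the libraries labelled Jeb replicate 1 of both drivers. At GATC sites with no adjoining fragment that has a purine after GATC at both ends, those 2 libraries held 13.6% and 15.3% of their counts, and the other 16 libraries 54.4% to 60.9%. The exons of Polr2A, the gene of the polymerase subunit, held 31.8 to 52.6 CPM in the 6 Alk.DN libraries and 157 to 2088 CPM in the other 12. The exons of Alk, from which the Alk.DN transgene was made, did not set the Alk.DN libraries apart. They held 39.0 to 44.9 CPM in twi Alk.DN against 34.4 to 124 in the twi controls. With bap they held 56.4 to 535 in Alk.DN against 85.8 to 241 in the libraries labelled Dam-PolII. The counts at Alk thus do not bear out the Alk.DN label. This check is weak, since the exons summed reach beyond the extracellular part and also hold counts of the gene's own locus. Directions against the bap libraries labelled Dam-PolII, and all Alk.DN values, are read with these checks in view, and their part in the results was not tested. Of the 7 fixed mesoderm markers, Mef2 and how stood above the 92nd percentile of protein-coding genes in each group and Hand above the 95th in all groups but twi Alk.DN (75.1). The percentile ran from 79.4 to 92.8 for bap, from 84.7 to 97.5 for bin and from 66.4 to 87.2 for tin. The gene twi stood lower, at 35.1 to 44.6 in the bap groups and 65.9 to 79.8 in the twi groups. Of the 4 markers listed for other tissues, elav stood at 83.5 to 92.4, grh at 74.3 to 82.8 and repo at 45.0 to 75.5. Thus elav and grh lay in the same range as several markers of the mesoderm. The gene srp stood at 80.2 to 90.1 in the bap groups and above the 97th percentile in the twi groups. Since srp is also active in derivatives of the mesoderm, its level does not mark other tissues alone.

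Values of a gene were summed over the GATC sites of its span and 500 bp on either side, called its window below. The 92 windows held 686 sites, 0.171% of all 400733 sites counted, with 1 to 23 sites per gene (median 7). Site density was 3.08 per kb in these windows and 3.01 per kb in those of all protein-coding genes. The spans were short, 304 to 4677 bp with a median of 1315 bp, against 2167 bp for protein-coding genes. Another protein-coding gene reached into the window of 72 genes and overlapped the span of 25. RpL7-like, RpL41 and RpS10a had no site of their own, since RpL41 lies inside NaCP60E, RpS10a inside tau, and RpL7-like shares its sites with neighbours such as CG34164. The near-identical copies RpS14a and RpS14b lie side by side on the X, and reads can be split between them, so their values are uncertain.

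Promoters were read from the release 6 reference sequence, from 250 bases before to 50 bases after the annotated start, for all 92 genes and for 13980 protein-coding genes in all. The core of the TCT initiator, searched as CTTTT beginning at positions -5 to 5 of the start on the gene's own strand, was found in 15 genes (16.3%) and in 1.7% of all promoters. The DREF element TATCGATA, searched on both strands, was found in 28 genes (30.4%) and in 8.93% of all promoters. The Motif 1 core GGTCACAC, the site of M1BP, was found in 13 genes (14.1%) and in 7.52% of all promoters. TATAAA, the TATA box, was found in 45.7% of these promoters and in 45.3% of all. A GATC, the only place where the assay can report, was found in 26 of these promoters (28.3%) and in 45.3% of all. A match is a description of letters and not a bound site. No motif contains another, and matches may overlap.

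The following stretches run from 60 bases before to 25 bases from the annotated start and show how these promoters differ in the initiator core and in the place of the nearest GATC (both in capitals, positions counted with no zero). RpL36 (chrX:629392-629476, minus strand), RpL3 (chr3R:11221834-11221918, plus strand) and RpL23A (chr3L:1668630-1668714, minus strand) hold the core at -2, 4 and 4. RpL18 (chr3L:7241295-7241379, minus strand) and RpL15 (chr3L:27267196-27267280, plus strand) hold a GATC and no such core.
RpL36: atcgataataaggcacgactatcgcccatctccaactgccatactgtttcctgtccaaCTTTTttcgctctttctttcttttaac
RpL3: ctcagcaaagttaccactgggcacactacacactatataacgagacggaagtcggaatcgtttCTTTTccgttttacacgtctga
RpL23A: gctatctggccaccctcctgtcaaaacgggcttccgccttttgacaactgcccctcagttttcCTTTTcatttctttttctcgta
RpL18: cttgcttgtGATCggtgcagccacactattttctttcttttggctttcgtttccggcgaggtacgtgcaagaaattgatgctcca
RpL15: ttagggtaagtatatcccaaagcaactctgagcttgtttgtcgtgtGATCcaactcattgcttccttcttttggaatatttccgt

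The strongest GATC site of each gene, by the mean of the 6 groups, lay in a coding exon in 28 genes, in an exon outside the coding sequence in 17, in an intron in 11, upstream in 9 and downstream in 27. It held over 50% of the window's CPM in 25 genes and lay within 500 bp after the start in 29. In 26 genes it lay in the span of another gene, so their values can include those of that gene. The windows of 30 bases below show, on the gene's strand, the site that carried most counts in genes the results turn on (GATC in capitals). They are RpL18 at -48 (chr3L:7241354-7241383), RpS28b at 79 (chrX:9554689-9554718), RpL36 at 137 (chrX:629266-629295), RpL15 at 73 (chr3L:27267316-27267345) and RpS30 at 90 (chr3R:20850593-20850622), with the distance in bp from the annotated start.
RpL18: gcgtcttgcttgtGATCggtgcagccacac
RpS28b: tagcatttttagcGATCtaacatggacaaa
RpL36: ctccagtgcgcttGATCcgcaccgcatttc
RpL15: ttctttagtacgaGATCatttcggaaataa
RpS30: ctttctttttcggGATCcgcacaccaagtt

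Occupancy of ribosomal protein genes was above that of other genes in each group, and most so in twi Dam-PolII and twi Jeb. Per kb of window, the median of the 92 genes was 17.2 CPM ± 1.89 (SD, n = 3) in the twi controls and 6.85 ± 0.304 (SD, n = 3) in the bap libraries labelled Dam-PolII. It was 10.7 ± 0.387 (SD, n = 3) in twi Alk.DN and 6.19 ± 0.585 (SD, n = 3) in bap Alk.DN. In Jeb it was 12.6 ± 2.8 (SD, n = 3) with twi and 8.29 ± 1.76 (SD, n = 3) with bap. The median of all protein-coding genes with a site, 13957 genes, moved the other way with Alk.DN, from 3.23 ± 0.0343 to 5.34 ± 0.0898 CPM per kb with twi and from 2.61 ± 0.04 to 4.67 ± 0.0593 with bap (SD, n = 3).

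On the scale of log2(CPM per kb + 1), the median of the ribosomal protein genes stood 2.10 ± 0.161 (SD, n = 3) above that of protein-coding genes in twi Dam-PolII, 2.00 ± 0.0674 in twi Jeb and 0.89 ± 0.0271 in twi Alk.DN. With bap the same difference was 1.12 ± 0.0396 in the libraries labelled Dam-PolII, 1.50 ± 0.133 in Jeb and 0.34 ± 0.134 in Alk.DN. The Alk.DN libraries of either driver did not overlap with the Dam-PolII or Jeb libraries of that driver. Ranked by group mean, 34 of the 92 genes were in the top 10% of protein-coding genes in twi Dam-PolII and 61 in the top 25%. In bap Alk.DN these counts were 13 and 27. Together the 92 windows took 0.92% ± 0.0314 (SD, n = 3) of all counts in twi Dam-PolII, 0.478% ± 0.0111 in twi Alk.DN, 0.447% ± 0.0181 in the bap libraries labelled Dam-PolII and 0.323% ± 0.00426 in bap Alk.DN.

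**Figure D1:**
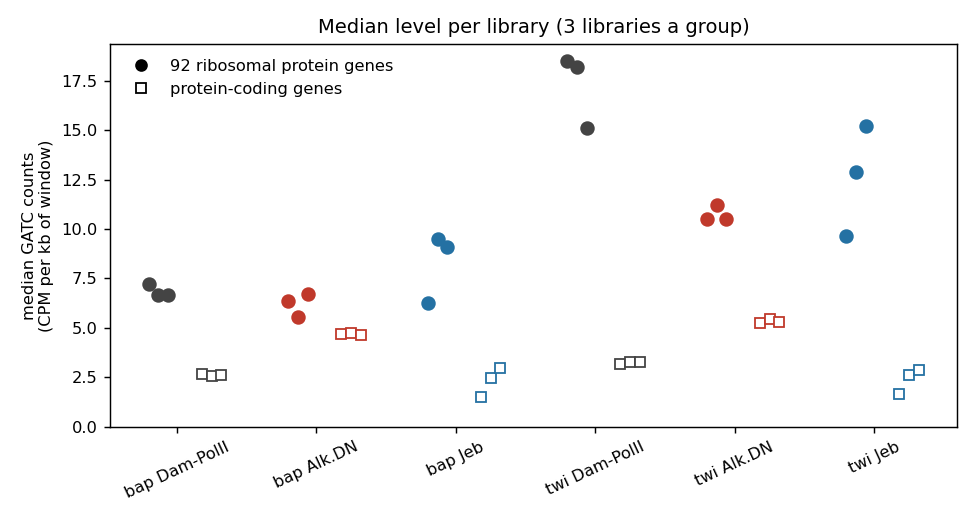
Median GATC counts per kb of window (y axis, CPM per kb) in each of the 18 libraries, for the 92 ribosomal protein genes (filled circles) and for all protein-coding genes with a site (open squares). The 3 twi Dam-PolII libraries sit at 15.1 to 18.5 CPM per kb for ribosomal protein genes and at 3.19 to 3.25 for protein-coding genes.

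The genes differed widely among themselves. By the mean of the 6 group means, high levels per kb were those of RpLP2, a protein of the acidic stalk that recruits elongation factors (343 CPM per kb), RpS28a (263), RpS30, made as a fusion with a ubiquitin-like protein (170) and RpL15 (164). The window of RpS28a reaches Mgat2, in whose span its strongest site lies, so its value cannot be told apart from that gene's. The lowest levels were those of RpL37-2 (0.274), RpLP0-like (0.492), RpL10Aa (0.923), RpS10a (1.6) and RpS10b (1.66). RpLP0-like, like RpL7-like and RpL24-like, is a relative of a yeast factor of ribosome assembly and no subunit of the finished ribosome. RpL37-2 has 1 site, held at most 1.87 CPM in any library and was tested in no comparison. RpLP0-like, RpL10Aa, RpS10a and RpS28-like passed the filter on low counts in some comparisons and not in others.

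Partners of duplicated genes differed in level. RpL22 held 30.6 and 34.4 CPM per kb in the bap libraries labelled Dam-PolII and in twi Dam-PolII, and its testis-enriched relative RpL22-like 0.648 and 3.11. RpL10Ab held 3.08 and 20.0 against 0.182 and 0.597 for RpL10Aa. RpS28a, whose strongest site lies in Mgat2, held 250.0 and 408 against 27.9 and 52.5 for RpS28b and 8.03 and 0.386 for RpS28-like. RpL7 held 7.6 and 5.83 against 1.15 and 1.82 for RpL7-like, RpL37-1 held 2.96 and 7.91 against 0.163 and 0.0286 for RpL37-2, and RpLP0 held 5.06 and 8.85 against 0.331 and 1.12 for RpLP0-like. RpS15Aa (61.9 and 66.1) and RpS15Ab (55.8 and 49.6) were close, as were RpS14a (4.01 and 6.5) and RpS14b (3.36 and 8.56). Of the 12 sites in the window of RpS15Ab only 4 lay outside the spans of other genes, so its level may include that of neighbours. All 11 sites of RpS15Aa lay outside such spans. RpS5a held 2.8 and 7.22 against 1.48 and 3.43 for RpS5b, RpS10b held 1.51 and 1.83 against 0.828 and 0.688 for RpS10a, RpL34a held 6.6 and 7.8 against 8.87 and 16.7 for RpL34b, and RpL24 held 5.46 and 7.19 against 6.85 and 15.4 for RpL24-like. RpS19b (5.95 and 14.1) stood above RpS19a (2.02 and 5.33), although part of its window is shared with neighbours. No test was run between partners.

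Counts gathered just inside the start. Sites 0 to 250 bp after the annotated start of these genes (45 sites) had a mean log2(CPM + 1) of 3.75 ± 0.0299 (SD, n = 3) in twi Dam-PolII, against 1.26 ± 0.0193 at the same distance in other protein-coding genes. The value fell back to 1.76 ± 0.0533 at 250 to 500 bp and was 1.83 ± 0.0272 at 1500 to 2000 bp. In twi Alk.DN the sites at 0 to 250 bp had 2.63 ± 0.0304 and those at 1500 to 2000 bp 1.57 ± 0.0139. With bap the sites at 0 to 250 bp had 3.09 ± 0.067 in the libraries labelled Dam-PolII and 2.30 ± 0.104 in Alk.DN. Upstream, at -1000 to -500 bp, the means of Dam-PolII and Alk.DN were 1.45 and 1.39 with twi and 1.32 and 1.19 with bap.

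**Figure D2:**
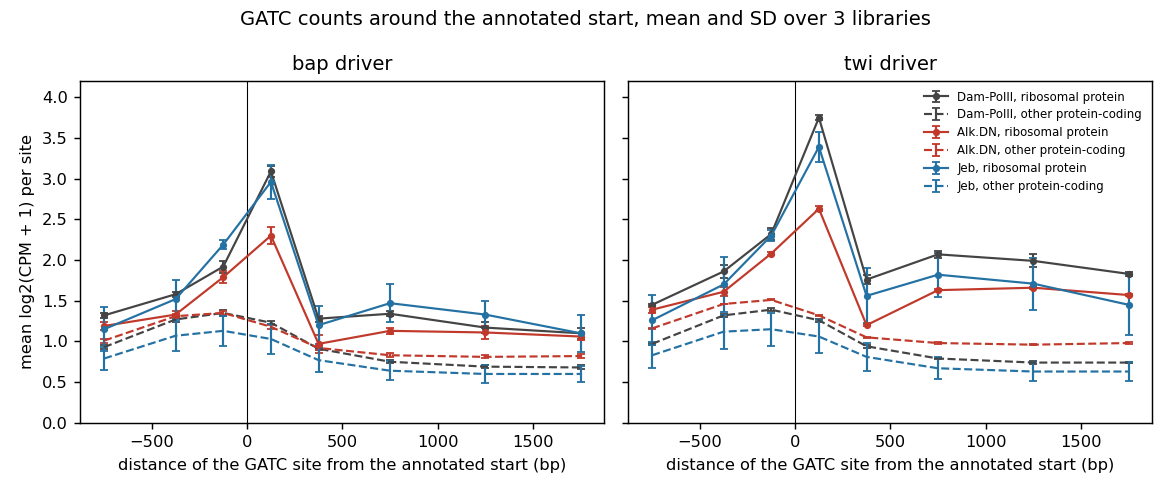
Mean log2(CPM + 1) per GATC site (y axis) by distance from the annotated start in bp (x axis, plotted at the middle of each bin), with the SD over 3 libraries, for ribosomal protein genes (solid) and other protein-coding genes (dashed). The ribosomal protein genes peak at 0 to 250 bp, at 3.75 in twi Dam-PolII and 2.63 in twi Alk.DN.

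The comparison of Alk.DN with Dam-PolII asks, by the labels, how polymerase occupancy changes when Alk signalling is blocked. Whether the low Polr2A counts of the Alk.DN libraries, given above, have a part in the result was not tested. With the twi driver, occupancy of most ribosomal protein genes was lower in Alk.DN. Of 90 genes tested, 64 were called lower and 2 higher at an adjusted p under 0.01 (edgeR's quasi-likelihood test with Benjamini-Hochberg adjustment over all genes tested), where 20.3% of all 16805 genes tested were called lower and 12.1% higher. The median log2 fold change was -1.18 over the ribosomal protein genes and 0.18 over all genes. It was -1.07 over the RpL genes (35 of 52 lower) and -1.30 over the RpS genes (29 of 38 lower).

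With the bap driver, against the bap libraries labelled Dam-PolII, 28 of 89 genes were called lower and 2 higher, where 21.2% of 15068 genes were called lower and 16.8% higher. The median was -0.82 over the ribosomal protein genes and 0.09 over all genes, with 17 of 51 RpL and 11 of 38 RpS genes lower. The share of lower calls was 31.5% of these genes. These drivers' comparisons share no library. Of 89 genes tested with both drivers, 27 were called lower with both, which is 96.4% of the lower calls with bap and 42.2% of those with twi. Of these 89, 75 had a negative fold change with both drivers. Across the genes the 2 sets of log2 fold changes correlated with r = 0.608 and rho = 0.505, as a description over genes that share libraries. No such overlap or correlation is given here for all genes, so these values do not set the ribosomal protein genes apart.

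The scaling matters for these counts. With total counts in place of TMM factors the median of all genes rose to 0.70 with twi and 0.62 with bap, so directions here are relative to the TMM scale. On total counts 42 genes were called lower and 3 higher with twi, where 11.5% of all genes were called lower and 28.3% higher. With bap 19 were called lower and 3 higher, where 11.6% and 29.8% of all genes were. All 42 and all 19 were among the genes called lower with TMM, and no called gene changed sign. A fit of all 18 libraries, which takes in the wide spread of the Jeb groups, called 18 genes lower with twi (4.58% of all genes) and 12 lower and 1 higher with bap (8.28% and 5.67% of all genes). Without the libraries labelled Jeb replicate 1 it called 53 lower with twi (16.3% of all genes) and 37 lower and 2 higher with bap (23.2% and 17.0% of all genes). On total counts the share of higher among the calls over all genes moved from 37.4% to 71.1% with twi and from 44.1% to 72.1% with bap.

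**Figure D3:**
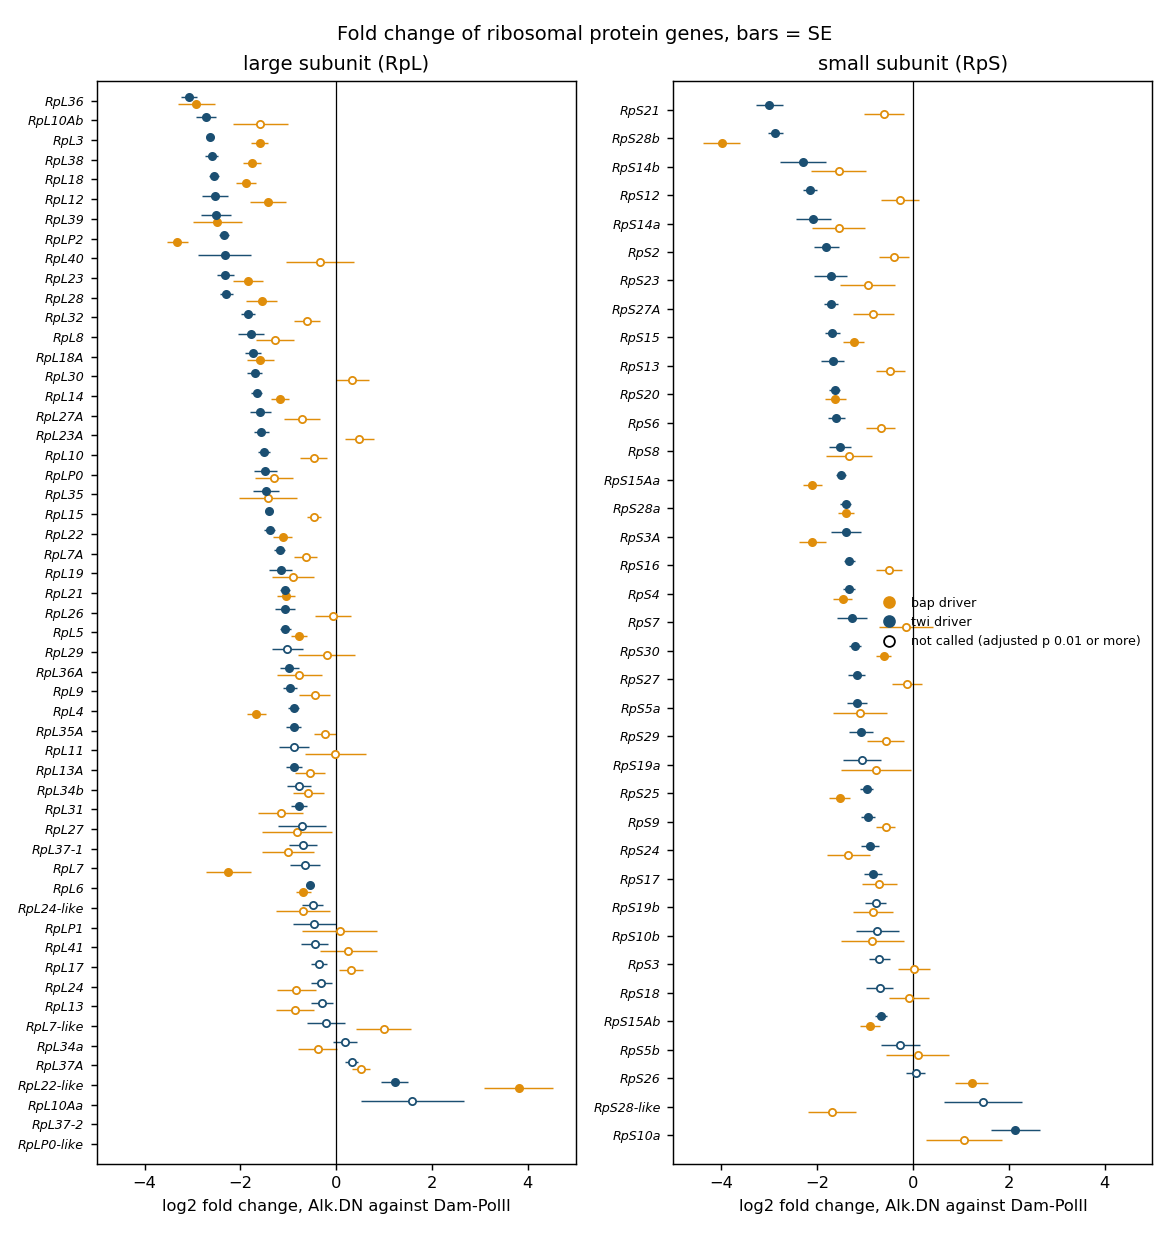
Log2 fold change of Alk.DN against Dam-PolII (x axis, bars are SE) for RpL genes (left) and RpS genes (right), with bap (orange) and twi (blue), ordered by the twi value; open symbols were not called. Most genes lie below 0 with twi, and RpL22-like and RpS10a are called higher.

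The share of genes called lower differed by level. Among other protein-coding genes with 50 CPM per kb or more, 89.3% were called lower with twi and 81.4% with bap. All 13 ribosomal protein genes of that class were called lower with twi and 12 of 13 with bap. At 10 to 20 CPM per kb, 15 of 17 ribosomal protein genes (88.2%) and 42.0% of the others were called lower with twi, but 1 of 17 and 40.7% with bap. At 2 to 5 CPM per kb, 8 of 15 and 5.43% were called lower with twi, and 0 of 15 and 7.02% with bap. Counts were also spread over more sites in twi Alk.DN, where 280005 to 293631 sites had a count, against 169821 to 195297 in twi Dam-PolII. With bap the numbers of sites were 180927 to 196104 and 179052 to 194847. The part of these values in the lower calls was not tested.

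**Figure D4:**
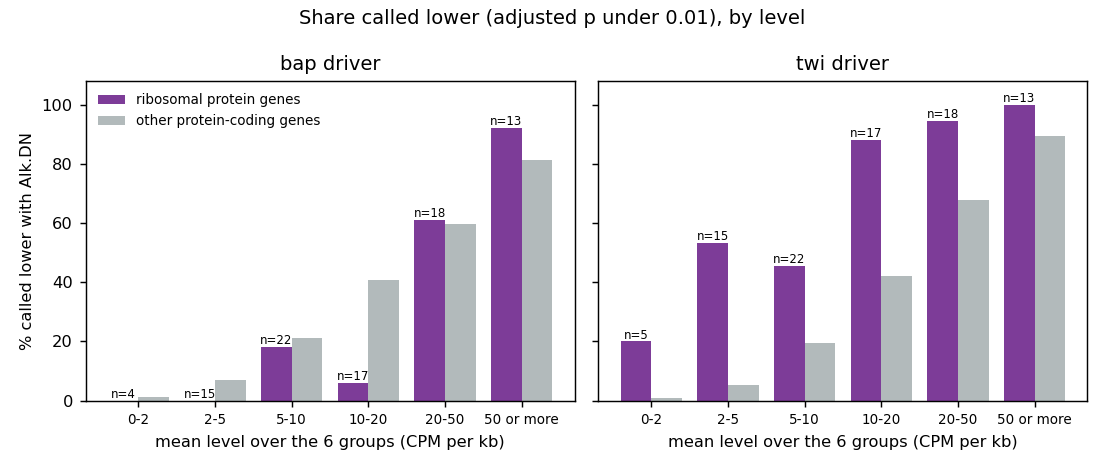
Share of genes called lower in Alk.DN (y axis, % of genes tested) by mean level over the 6 groups (x axis, CPM per kb), for ribosomal protein genes (purple, with the number tested) and other protein-coding genes (grey). In the class of 50 CPM per kb or more the shares with twi are 100% and 89.3%.

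RpLP2 was called lower with both drivers. Its window held 1185, 915 and 965 CPM in replicates 1 to 3 of the twi controls and 294, 288 and 286 CPM in twi Alk.DN, a log2 fold change of -2.34 ± 0.0992 (SE, adjusted p = 1.07e-08). It held 238, 294 and 343 CPM in the bap libraries labelled Dam-PolII and 52.3, 27.4 and 46.7 in bap Alk.DN (-3.32 ± 0.22, adjusted p = 1.43e-08). The groups did not overlap with either driver. The change sat in a pair of sites in and after the coding exon, at 255 and 681 bp, which went from 512 and 424 CPM to 146 and 99.5 with twi and from 139 and 118 to 9.26 and 5.83 with bap (means, n = 3). A site at -410 bp held 41.0 and 25.8 CPM with twi and 21.0 and 19.0 with bap. Of its stalk partners, RpLP0, the anchor of the stalk, was called lower with twi (-1.48 ± 0.24, adjusted p = 0.000456) and had -1.30 ± 0.39 with bap (adjusted p = 0.0118). RpLP1, with at most 15.2 CPM in any library, had -0.46 ± 0.45 (adjusted p = 0.425) and 0.07 ± 0.776 (adjusted p = 0.947).

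RpL18 was called lower with both drivers. The site 48 bp before its start shown above held 91.8% of its window. The window held 251, 276 and 239 CPM in the twi controls and 68.4, 56.8 and 62.6 in twi Alk.DN (-2.55 ± 0.11, adjusted p = 1.23e-08). It held 146, 125 and 116 CPM in the bap libraries labelled Dam-PolII and 59.7, 55.9 and 34.4 in bap Alk.DN (-1.89 ± 0.209, adjusted p = 3.03e-06). With sites of the span alone, which leave out this site, the bap value was -0.72 and no longer called. In the libraries labelled Jeb replicate 1 the window held 649 and 1304 CPM, against 106 to 178 in the other Jeb libraries.

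RpS28b, a protein of the small subunit, was called lower with both drivers. Its window held 62.8, 60.8 and 47.2 CPM in the bap libraries labelled Dam-PolII and 9.26, 3.27 and 2.68 in bap Alk.DN (-3.99 ± 0.386, adjusted p = 7.42e-07). With twi it held 106, 104 and 111 CPM in Dam-PolII and 16.4, 24.1 and 22.3 in Alk.DN (-2.87 ± 0.158, adjusted p = 8.25e-08). RpL36, whose promoter holds both the TCT core and a DREF element, was called lower with twi (135, 110 and 103 CPM against 23.0, 20.3 and 16.3, -3.07 ± 0.171, adjusted p = 9.49e-08). With bap it went from 22.9, 32.2 and 27.8 CPM to 4.72, 2.81 and 8.03 (-2.92 ± 0.391, adjusted p = 2.07e-05). In both genes the groups did not overlap.

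RpL3, which lies next to the catalytic centre of the large subunit, had the smallest adjusted p with twi. It held 441, 488 and 482 CPM in the twi controls and 109, 106 and 109 in twi Alk.DN (-2.64 ± 0.0822, adjusted p = 1.13e-09). With bap it went from 86.0, 88.2 and 90.4 to 42.9, 45.8 and 36.9 CPM (-1.60 ± 0.183, adjusted p = 4.36e-06). RpL38, known in mouse for its part in the translation of Hox messages, held 158, 218 and 187 CPM in the twi controls and 45.9, 42.9 and 43.8 in twi Alk.DN (-2.60 ± 0.131, adjusted p = 4.19e-08). With bap it went from 97.2, 93.5 and 96.4 to 39.9, 34.9 and 47.8 CPM (-1.75 ± 0.187, adjusted p = 2.09e-06). RpS15Aa had -1.50 ± 0.105 (adjusted p = 5.72e-07) and -2.10 ± 0.194 (adjusted p = 4.70e-07).

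Among other genes of known roles, RpS27A, made as a fusion with ubiquitin, was lower with twi (-1.71 ± 0.147, adjusted p = 3.07e-06) and had -0.83 ± 0.428 with bap (adjusted p = 0.119). RpL40, the other ubiquitin fusion, had -2.33 ± 0.559 with twi (adjusted p = 0.00577) from 5.12, 8.83 and 7.93 CPM to 3.36, 0.84 and 1.99. That call was lost without replicate 2 of twi Dam-PolII or without replicate 2 or 3 of twi Alk.DN, with values from -2.30 to -1.96. RpS6, the substrate of S6 kinase, had -1.60 ± 0.174 with twi (adjusted p = 2.03e-05) and -0.67 ± 0.303 with bap (adjusted p = 0.0763). RpL32, a common reference gene for expression assays, had -1.84 ± 0.155 (adjusted p = 2.59e-06) and -0.61 ± 0.273 (adjusted p = 0.0721). RpL10, which joins the large subunit late in its assembly, had -1.50 ± 0.126 (adjusted p = 2.53e-06) and -0.47 ± 0.28 (adjusted p = 0.178). RpS13 had -1.67 ± 0.24 (adjusted p = 0.000193) and -0.47 ± 0.295 (adjusted p = 0.195). RpS3 was called with neither driver (-0.70 ± 0.214, adjusted p = 0.0204, and 0.02 ± 0.329, adjusted p = 0.966).

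Genes called higher were few. RpL22-like was called higher with both drivers. Its window held 3.06, 0 and 1.38 CPM in the bap libraries labelled Dam-PolII and 31.7, 38.1 and 17.2 in bap Alk.DN (3.81 ± 0.716, adjusted p = 0.000448). With twi it went from 8.59, 7.71 and 5.0 to 23.5, 23.6 and 24.0 CPM (1.22 ± 0.275, adjusted p = 0.00394), a call that was lost without any 1 of the twi Alk.DN libraries (values from 1.21 to 1.24) and with sites of the span alone (1.34, adjusted p = 0.0185). Its relative RpL22 was called lower with both (-1.39 ± 0.116, adjusted p = 2.35e-06 with twi, and -1.12 ± 0.189, adjusted p = 0.000178 with bap). RpS26, which lines the path where messenger RNA leaves the small subunit, was called higher with bap, from 5.68, 10.0 and 6.9 to 28.3, 24.1 and 24.5 CPM (1.23 ± 0.345, adjusted p = 0.00788). It had 0.06 ± 0.2 with twi (adjusted p = 0.811). The bap call of RpS26 was lost in 5 of the 6 fits that left out 1 library (values of those 5 from 1.05 to 1.25), the exception being the fit without replicate 2 of the bap libraries labelled Dam-PolII. RpS10a was called higher with twi (2.14 ± 0.52, adjusted p = 0.00628) from 0.812 to 1.34 CPM to 6.51 to 7.24 CPM, a call lost without any 1 twi Alk.DN library (values from 2.10 to 2.19). Its sites lie in tau.

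Some partners of duplicated genes were called with twi and others were not. RpL10Ab (-2.72 ± 0.203, adjusted p = 1.02e-06), RpS28a (-1.40 ± 0.114, adjusted p = 2.07e-06), RpS14a (-2.08 ± 0.366, adjusted p = 0.000839), RpS14b (-2.30 ± 0.483, adjusted p = 0.00256), RpS15Ab (-0.67 ± 0.123, adjusted p = 0.00114) and RpS5a (-1.17 ± 0.212, adjusted p = 0.00102) were lower with twi. The call of RpS14b was lost without replicate 1 of twi Dam-PolII (-1.79, adjusted p = 0.0102) or replicate 1 of twi Alk.DN (-1.99, adjusted p = 0.0129). RpL7 was lower with bap (-2.25 ± 0.471, adjusted p = 0.00106) and had -0.65 ± 0.319 with twi (adjusted p = 0.114), a difference between drivers with an adjusted p of 0.0515. RpL24, RpL24-like, RpL34a, RpL34b, RpL37-1, RpL7-like, RpS5b, RpS10b, RpS19a, RpS19b and RpS28-like were called with neither driver.

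**Figure D5:**
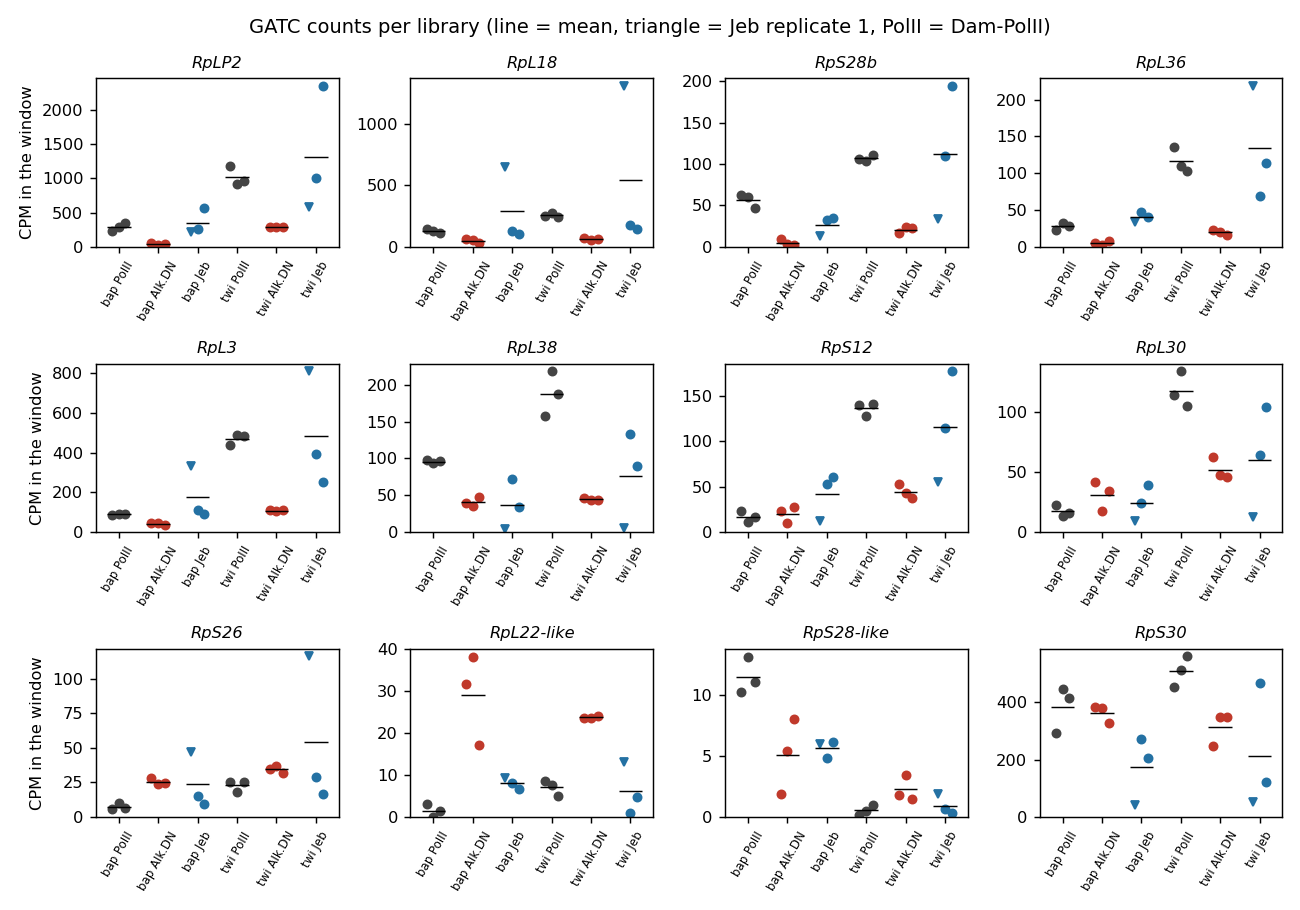
CPM in the window of 12 genes (y axis) in each library of the 6 groups, with the mean as a line and Jeb replicate 1 as a triangle. RpLP2, RpL18, RpS28b, RpL36, RpL3 and RpL38 are lower in all Alk.DN libraries than in all Dam-PolII libraries of the same driver, and RpL22-like is higher.

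Over all genes tested, 20.3% were called lower and 12.1% higher in Alk.DN with twi, and 21.2% lower and 16.8% higher with bap. Set beside the genes of the same machinery, mitochondrial ribosomal protein genes had 20 of 70 lower and 2 higher with twi (median -0.50) and 15 of 66 lower and 3 higher with bap (median -0.30). Initiation and elongation factor genes had 20 of 49 lower and 1 higher with twi (median -0.50) and 11 of 46 lower and 2 higher with bap (median -0.50). Ribosome biogenesis genes had 11 of 19 lower with twi (median -0.83), among them Mybbp1A (-2.53 ± 0.226, adjusted p = 4.30e-06) and the nucleolar protein gene Nopp140 (-1.87 ± 0.173, adjusted p = 5.57e-06), and 4 of 19 lower and 1 higher with bap (median -0.24). In the order of these lists the shares called lower were 28.6%, 40.8% and 57.9% with twi, and 22.7%, 23.9% and 21.1% with bap. Mybbp1A reaches into the window of RpL36, eIF1 into that of RpL28 and mRpL27 into that of RpL27A. Values of these pairs can therefore share sites. Rack1, which binds the small subunit and is not an Rp symbol, had -2.15 ± 0.135 with twi (adjusted p = 2.47e-07) and -2.43 ± 0.261 with bap (adjusted p = 2.28e-06), and sta, the gene of the small-subunit protein SA, -2.48 ± 0.117 (adjusted p = 2.52e-08) and -0.36 ± 0.187 (adjusted p = 0.125). Of 7 genes that regulate ribosomal protein genes, Myc (-1.87 ± 0.0794, adjusted p = 1.12e-08), Mnt and Trf2 were lower with twi, and these 3 and Xrp1 with bap.

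The comparison of the drivers in Dam-PolII asks where polymerase lies in the mesoderm at large against the visceral mesoderm. More ribosomal protein genes were called higher than lower with twi. Of 89 genes tested, 39 were called higher and 2 lower, where 12.8% of 14650 genes were called higher and 17.0% lower. The median was 0.90 over these genes and 0.07 over all genes. On total counts 50 were called higher and 1 lower (18.4% and 12.2% of all genes), with a median of all genes of 0.33, and the share of higher among all calls moved from 43.0% to 60.1%. A fit of all 18 libraries called 9 higher and 1 lower, where it called 3.34% of all genes higher and 5.02% lower. The group labelled bap Dam-PolII, which held jeb counts, is the base here, and both Dam-PolII groups are also the controls of the Alk.DN comparisons.

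RpS12, needed in Drosophila for the competition between Minute and normal cells, had the largest value among the fixed genes. It held 140, 128 and 141 CPM in the twi controls and 23.0, 10.6 and 17.0 in the bap libraries labelled Dam-PolII (2.76 ± 0.23, adjusted p = 3.40e-08). The strongest site of RpS12 lay downstream of its span, in a window that Zmynd10 also reaches. RpL30 held 114, 134 and 105 against 22.2, 13.4 and 16.2 CPM (2.52 ± 0.21, adjusted p = 3.44e-08), and its strongest site lies in CG31793. RpL10Ab (2.44 ± 0.257, adjusted p = 5.73e-07), RpS27A (2.38 ± 0.249, adjusted p = 5.25e-07) and RpL3 (2.16 ± 0.11, adjusted p = 9.46e-11) were higher too, and RpLP2 by 1.55 ± 0.129 (adjusted p = 3.29e-08). The 2 genes called lower were RpS28-like, with 0.165, 0.507 and 0.975 against 10.2, 13.1 and 11.0 CPM (-4.55 ± 0.589, adjusted p = 6.57e-06), and RpS25 (-0.60 ± 0.169, adjusted p = 0.00834). The call of RpS25 was lost in 5 of the 6 fits that left out 1 library (values of those 5 from -0.66 to -0.44), the exception being the fit without replicate 2 of the bap libraries labelled Dam-PolII, and its value turned to 0.33 on sites of the span alone. RpL37A held 85.9, 75.4 and 71.3 CPM in the twi controls and 88.2, 79.8 and 79.0 in the bap libraries labelled Dam-PolII. In Alk.DN it held 113, 150 and 153 CPM with twi and 137, 148 and 223 with bap. These lay above all Dam-PolII values of the same driver, yet RpL37A was called in none of these comparisons. Of the other lists, ribosome biogenesis genes had 11 of 19 higher with twi (median 1.41) and mitochondrial ribosomal protein genes 5 of 67 higher and 6 lower (median 0.20). Over all genes 12.8% were called higher and 17.0% lower.

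The Alk.DN effects of the 2 drivers were compared by an interaction term. Of 91 genes tested, 7 were called lower (a more negative change with twi) and 2 higher, where 4.99% of 17086 genes were called lower and 5.88% higher. Those called lower included RpL23A, RpL3, RpL30, RpL15, RpS21 and RpS12, and the 2 called higher were RpLP2 and RpL4. RpL23A held 61.1, 77.8 and 62.1 CPM in the twi controls and 30.9, 33.1 and 34.1 in twi Alk.DN. With bap it held 15.4, 15.6 and 15.8 CPM in the libraries labelled Dam-PolII and 41.2, 21.3 and 31.4 in Alk.DN, with a difference of the log2 fold changes of -1.93 ± 0.324 (adjusted p = 0.0002). For this gene the ranges of the 2 Alk.DN groups overlapped and those of the 2 control groups did not. The median interaction was -0.39 over these genes and -0.05 over all genes. On total counts 9 genes were called lower and 1 higher (5.95% and 4.55% of all genes), and the share of higher among all calls moved from 54.1% to 43.3%. No ribosomal protein gene was called in a fit of all 18 libraries (0.457% of all genes), and 4, all lower, without the libraries labelled Jeb replicate 1 (3.26% of all genes lower).

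The comparison of Jeb with Dam-PolII asks how occupancy changes when Alk is activated. No ribosomal protein gene was called. With bap 0 of 88 genes tested were called, where 0% of 13726 genes were, with a median of 0.50 (all genes 0.16). At an unadjusted p under 0.05 were 18 of the 88 genes and 1741 of all. DESeq2's Wald test called 1, RpL10Ab, which held 32.3, 25.6 and 21.5 CPM in bap Jeb and 6.41 to 8.52 in the bap libraries labelled Dam-PolII, and limma-voom called 0. With twi 0 of 89 genes tested were called, where 0% of 14941 genes were, with a median of 0.07 (all genes 0.09). At an unadjusted p under 0.05 were 2 of the 89 genes and 1143 of all, and DESeq2 and limma-voom called 0. Without the libraries labelled Jeb replicate 1, no ribosomal protein gene was called with either driver, and 1.5% (bap) and 1.51% (twi) of all genes were. Within the Jeb groups the libraries correlated over these genes with r from 0.693 to 0.92 (bap) and from 0.752 to 0.953 (twi), against 0.967 to 0.977 in twi Dam-PolII. The spread in the Jeb groups limits what these comparisons could detect. At the first exon of jeb the bap libraries labelled Dam-PolII held 382, 367 and 470 CPM, and bap Jeb held 5.57, 258 and 249. The bap comparison therefore does not set libraries with jeb counts against libraries without, and the part of this was not tested.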

How the data were processed

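Polymerase II occupancy was measured by targeted DamID in 18 embryo libraries, 3 biological replicates in each of 6 groups. Alignment by the authors was with Bowtie2 against the release 6 genome from FlyBase. The deposited values are read counts at each GATC site, as whole numbers that were not normalized. Their 4 peak tables hold p-values and false discovery rates of their own comparisons and were not used. All 383688 sites on reference chromosomes lay at identical positions in the reference used here, and no column was left unmapped.

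Counts were summed per gene of the Ensembl release 115 annotation over its span and 500 bp on either side. Library totals of 1624349 to 14095376 counts set the CPM. The count test was edgeR 4.0.16 (quasi-likelihood, TMM, filterByExpr with a minimum count of 10, R 4.3.3), two-sided, with Benjamini-Hochberg adjustment over all genes tested and calls at an adjusted p under 0.01, and SE is the log2 fold change divided by the root of F. Each Alk.DN, Jeb and driver comparison used its 2 groups, and the interaction the 4 groups without Jeb. The test was checked on simulated counts. The labels call the libraries biological replicates of pooled embryos, so p-values measure the spread between pools.

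Named were the 5 genes called in each direction with the smallest adjusted p in each Alk.DN comparison, the 5 highest and lowest levels, duplicated genes, genes not tested and a fixed set of known genes. RpL36, RpL30, RpL23A, RpS21, RpL4, RpS25 and RpL37A were added after their values were seen. A gene that the rule would name is counted with the others and not reported here by name. The genes and lists were chosen with earlier results of these data known. Alternatives were other scalings, filters, tests (limma 3.58.1, DESeq2 1.42.0), windows, thresholds, sample sets, a replicate block and leaving out each library. Promoter and site sequences came from RefSeq and the release 6 reference.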

Additional observations from a re-analysis of the deposited data

Results flagged for a closer look

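The effect of Alk.DN differed between the drivers in the following ribosomal protein genes by the interaction term of edgeR's quasi-likelihood test. In all, 9 of 91 ribosomal protein genes tested were called, where 10.9% of all 17086 genes were, so the count itself does not set these genes apart. A negative value is a more negative change with twi than with bap. The values were -1.93 for RpL23A (adjusted p = 0.0002), -0.93 for RpL3 (adjusted p = 0.000235), -1.94 for RpL30 (adjusted p = 0.000631), -0.84 for RpL15 (adjusted p = 0.000634), -2.30 for RpS21 (adjusted p = 0.00169) and -1.78 for RpS12 (adjusted p = 0.00387). They were 1.07 for RpLP2 (adjusted p = 0.00279) and 0.88 for RpL4 (adjusted p = 0.00539). In RpS21 the window went from 35.2, 23.6 and 23.3 to 5.75, 4.2 and 4.68 CPM with twi and from 6.56, 11.6 and 9.27 to 10.8, 7.72 and 7.65 with bap, where the groups overlapped.

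The calls of RpL4, RpLP2 and RpS12 were lost on leaving out single libraries. RpL4 lost its call in 8 of the 12 fits that left out 1 library, those without any 1 bap library labelled Dam-PolII, replicate 2 of bap Alk.DN, or replicate 2 or 3 of twi Dam-PolII or twi Alk.DN (0.68 to 0.89). RpLP2 lost it in 4, those without replicate 2 or 3 of either Dam-PolII group (0.83 to 1.04). RpS12 lost it in 6, those without replicate 1 or 3 of bap Alk.DN or twi Dam-PolII, or replicate 2 or 3 of twi Alk.DN (-1.75 to -1.46). With sites of the span alone RpL15 had -0.56 (adjusted p = 0.0571) and RpL4 0.34 (adjusted p = 0.493), and neither was called. The bap side of each value rests on the bap libraries labelled Dam-PolII, whose part was not tested.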

How the results depend on the processing

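Counts of called genes changed most with the samples in the fit. With all 18 libraries in 1 fit the calls numbered 13 (bap Alk.DN), 18 (twi Alk.DN), 10 (twi against bap), 1 (bap Jeb) and 0 (interaction), against 30, 66, 41, 0 and 9. Over all genes that fit called 14.0%, 5.27%, 8.35%, 1.11% and 0.457%, against 38.0%, 32.4%, 29.8%, 0% and 10.9%. Without the libraries labelled Jeb replicate 1, chosen after seeing the data, the interaction had 4 (7.2% of all genes). At an adjusted p under 0.05 the interaction had 18 calls of 91 genes (17.8% of all genes), and by DESeq2's Wald test 14 (15.6% of all genes). That test called 1 gene in bap Jeb (1.69% of all genes). Leaving out 1 library gave 27 to 31 calls (bap Alk.DN), 54 to 68 (twi Alk.DN), 32 to 37 (twi against bap), 7 to 11 (interaction) and 0 (Jeb). Those fits called 29.0% to 33.0%, 21.3% to 35.1%, 23.9% to 25.6%, 8.12% to 10.6% and 0% to 1.51% of all genes, in the same order. RpS25, twi against bap, turned to 0.33 with sites of the span alone. The level of ribosomal protein genes above protein-coding genes (log2) moved with its definition. Per GATC site it was 0.97 (bap Dam-PolII), 1.27 (bap Jeb), 1.75 (twi Dam-PolII), 0.84 (twi Alk.DN) and 1.67 (twi Jeb). With the span alone it was 1.46 (bap Dam-PolII), 1.74 (bap Jeb), 2.30 (twi Dam-PolII) and 2.13 (twi Jeb), and with unshared sites 1.41 (bap Dam-PolII), 0.74 (twi Alk.DN) and 1.86 (twi Jeb). With a pseudocount of 0.1 it was 1.36 (bap Dam-PolII), 1.84 (bap Jeb), 2.37 (twi Dam-PolII), 0.99 (twi Alk.DN) and 2.35 (twi Jeb). Against short protein-coding genes it was 1.44, 0.53 and 1.85 (bap Dam-PolII, Alk.DN and Jeb) and 2.34, 1.05 and 2.27 (twi). Without 1 library it ran from 1.10 to 1.13, 0.28 to 0.41 and 1.45 to 1.58 (bap) and from 2.05 to 2.19, 0.87 to 0.90 and 1.96 to 2.03 (twi), in the same order. The cause of these shifts was not tested. Replicate numbers did not pair the libraries (correlations of deviations from -0.03 to 0.03), and the fit with the replicate number as a block gave 29 (bap Alk.DN), 64 (twi Alk.DN), 42 (twi against bap) and 9 (interaction) calls. With the block 35.4%, 28.4%, 29.9% and 10.5% of all genes were called, in the same order. Depth limits the genes of low level.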

Other observations

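The genes that carry snoRNAs in their span numbered 28. With twi 26 of these were called lower in Alk.DN (median log2 fold change -1.39), against 38 of 62 other ribosomal protein genes tested (median -1.04). With bap 10 of 28 and 18 of 61 were called lower, and 18 of 28 and 21 of 61 were called higher in twi than in the bap libraries labelled Dam-PolII. Genes with the TCT core had 11 of 15 called lower with twi (median -1.46) and the others 53 of 75 (median -1.16). Genes with a DREF element had 21 of 28 called lower (median -1.12) and the others 43 of 62 (median -1.25). Over all genes tested, 20.3% were called lower in Alk.DN with twi and 21.2% with bap. In the comparison of the drivers 12.8% of all genes were called higher with twi. The share of lower calls differed by level, as given above, and levels were not matched here. These differences were not tested.

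In RpL15 the sites changed unequally. The sites at 73 and 959 bp went from 93.5 ± 7.6 and 87.0 ± 10.8 CPM in twi Dam-PolII to 15.0 ± 2.89 and 17.1 ± 1.31 in twi Alk.DN (SD, n = 3). The site at -14 bp held 46.2 ± 14.1 and 43.1 ± 1.78 CPM, and that at 1083 bp 87.3 ± 4.92 and 76.6 ± 4.71. With bap the site at 73 bp went from 39.9 ± 7.0 to 11.9 ± 3.43 CPM and that at -14 bp from 26.6 ± 3.28 to 61.5 ± 5.91. In RpS30 the pair of sites at 90 and 507 bp held 195 ± 43.7 and 184 ± 37.0 CPM in the bap libraries labelled Dam-PolII and 192 ± 10.3 and 165 ± 30.4 in bap Alk.DN, and 255 ± 27.8 and 241 ± 26.4 against 158 ± 29.5 and 147 ± 29.4 with twi.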
